A study of Mus musculus with 8 samples.

Results

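The genes described here are Cpsf7 and 6 other factors of mRNA 3′ end cleavage: Cpsf6, Nudt21, Pcf11, Clp1, Cpsf1 and Cstf2. They were taken by symbol from the deposited UMI tables, and all 7 were found among 33549 entries with a count. The set was chosen by a measured value, the high UMI count of Cpsf7 in buccal mucosa against the other sites, to which its known partners were added, so the comparison of buccal mucosa with the other sites is given as a description. For it the levels, folds and counts past a threshold are printed with no p-value of a gene, and nothing is read from them. The question is whether the other 6 genes share that pattern, and how all 7 vary between sites, replicates and sections.

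The data are tomo-seq profiles of mouse oral mucosa, a method that sections frozen tissue in series and sequences the sections under separate barcodes, so that a gene can be followed from one section to the next. All samples came from wild-type C57BL/6J mice, whose age and sex are not given in the labels. Buccal mucosa (the inner cheek), dorsal tongue (its upper surface), hard palate and ventral tongue (its underside) had 2 replicates each, and each of the 8 samples had 20 sections of 14 µm. The labels do not say whether the replicates are different animals, and the p-values therefore speak of the spread among these libraries alone, part of which may be technical.

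A newly made mRNA is cut downstream of a polyadenylation signal, usually AAUAAA, and then receives its poly(A) tail. The signal is read by the cleavage and polyadenylation specificity factor CPSF, which holds Cpsf1 as its large scaffold. The cleavage stimulation factor CstF binds the GU-rich stretch after the cleavage site through Cstf2. Cleavage factor I binds UGUA upstream of the signal through Nudt21 and holds either Cpsf6 or Cpsf7 as its larger subunit, so that Cpsf6 and Cpsf7 are alternative partners of the same small subunit. This complex is known for its influence on which of several polyadenylation sites a transcript uses. Cleavage factor II consists of Pcf11, which also binds the tail of RNA polymerase II, and Clp1, an RNA kinase that also takes part in tRNA splicing.

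The libraries count transcripts next to their own poly(A) tails, so the end of each transcript is shown, from its polyadenylation signal to its annotated end. The letters are DNA of the GRCm38 genome in the 5′ to 3′ direction of the transcript named by GENCODE M21, with the signal in capitals.
Cpsf7: AATAAActtgatgacgatgtc
Cpsf6: AATAAAaacaaagttttg
Nudt21: AATAAAaatatttaaaactgaa
Pcf11: ATTAAAacttgtgattttttttccgtggga
Clp1: AATAAAtttaaccttttcttc
Cstf2: AATAAAtattttaaaag
These stretches lie at chr19:10547633-10547653 on the plus strand for Cpsf7, chr10:117344673-117344690 on the minus strand for Cpsf6 and chr8:94015496-94015517 on the minus strand for Nudt21. They lie at chr7:92643543-92643572 on the minus strand for Pcf11, chr2:84722104-84722124 on the minus strand for Clp1 and chrX:134086803-134086819 on the plus strand for Cstf2. AATAAA was found for 5 genes and ATTAAA for Pcf11, and neither word was in the last 50 bases of the Cpsf1 transcript. Of 58200 annotated protein-coding transcripts of at least 300 bases, 40.9% held the first word there and 50.6% held either. TGTA, the DNA form of the word that cleavage factor I binds, was in the last 100 bases for Cpsf7, Cpsf6, Nudt21, Cpsf1 and Cstf2, against 42.6% of those transcripts. A match is a description of letters and not a mapped site. Cpsf7 has 8 annotated transcripts whose ends run from position 10533366 to 10547653 of chromosome 19, and the deposited counts do not say which ends were used.

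The samples held 7830471 to 26376536 UMIs each, and single sections 2523 to 2850676. Values are UMIs scaled to a total of 1000000 per sample (CPM). Of 160 sections, 154 had at least 100000 UMIs and are used for values of single sections. Buccal mucosa replicate 2 stood apart. Its 20 keratinocyte markers, all detected, summed to 1052 CPM, against 28462 CPM in buccal mucosa replicate 1 and 26238 to 36492 CPM in the other sites. Its salivary gland list summed to 8950 CPM with none of 12 genes at 0. In buccal mucosa replicate 1 that list summed to 295 CPM with Dcpp1 and Smgc at 0, and in the other sites to 17.2 to 259 CPM with 1 to 6 genes at 0. Its adipocyte list (10 genes, none at 0) summed to 5078 CPM, against 467 CPM in buccal mucosa replicate 1 and 36.7 to 1095 CPM elsewhere. Its skeletal muscle list summed to 32731 CPM, against 185 to 17720 CPM in the 7 other samples, and its Schwann cell list to 2595 CPM, against 270.3 to 811 CPM. Mitochondrial transcripts took 7.20% of its UMIs and 2.11% to 4.15% of the others'. In such samples, fewer cells of a type and less RNA per cell cannot be told apart.

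Cpsf7, an alternative large subunit of cleavage factor I, was at 74.6 CPM and 42.0 CPM in buccal mucosa. Dorsal tongue had 5.09 and 3.001 CPM, hard palate 7.89 and 9.02 CPM, and ventral tongue 3.15 and 2.83 CPM. Both buccal samples lay far above the other 6, with no overlap, and the lowest buccal value was 4.66 times the highest value elsewhere. These are the values that chose the gene. The counts behind these levels were 1260 and 329 UMIs in buccal mucosa and 51 to 238 UMIs in each other sample, all above the 3 UMIs that a count of 0 allows. The means were 58.3 ± 23.1 CPM in buccal mucosa (SD, n = 2) and 5.16 ± 2.703 CPM in the others (SD, n = 6).

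**Figure D1:**
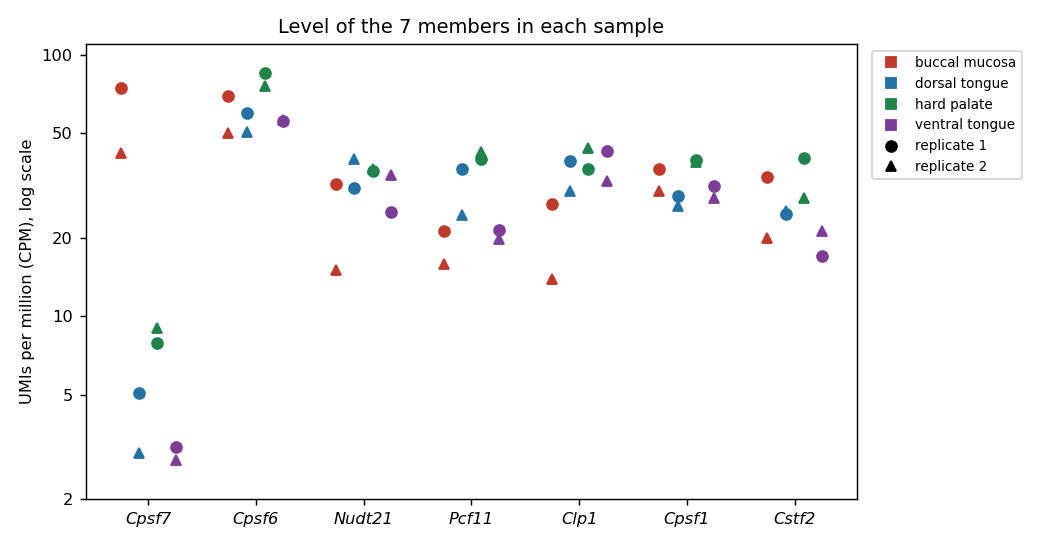
The vertical axis is the level in CPM on a log scale, and each point is 1 sample, coloured by site and shaped by replicate. Cpsf7 lies at 42.0 to 74.6 CPM in buccal mucosa and 2.83 to 9.02 CPM elsewhere, while the points of Cpsf6, Cpsf1 and Cstf2 from buccal mucosa lie within or next to those of the other sites.

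Cpsf6, the alternative to Cpsf7 in the same complex, was at 69.4 and 50.3 CPM in buccal mucosa. Dorsal tongue had 59.8 and 50.7 CPM, hard palate 84.9 and 75.7 CPM, and ventral tongue 55.7 and 56.1 CPM. The buccal samples lay on either side of the dorsal and ventral tongue samples and below hard palate. Nudt21, the small subunit to which both bind, was at 32.0 and 15.1 CPM in buccal mucosa, against 30.9 and 39.9 CPM in dorsal tongue, 35.8 and 36.6 CPM in hard palate, then 25.0 and 34.7 CPM in ventral tongue. Buccal mucosa replicate 2 was the lowest of the 8, and replicate 1 lay among the other sites.

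Of cleavage factor II, Pcf11 was at 21.2 and 15.8 CPM in buccal mucosa, 36.6 and 24.4 CPM in dorsal tongue, 39.9 and 42.3 CPM in hard palate, then 21.4 and 19.8 CPM in ventral tongue. The buccal and ventral tongue samples overlapped at the low end, and hard palate was the highest. Clp1 was at 27.0 and 13.9 CPM in buccal mucosa, 39.1 and 30.01 CPM in dorsal tongue, 36.5 and 43.8 CPM in hard palate, then 42.8 and 32.8 CPM in ventral tongue. Both buccal samples lay below the other 6 for Clp1, the opposite side from Cpsf7.

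Cpsf1, the CPSF scaffold, varied least among the 7 genes, with 36.6 and 30.01 CPM in buccal mucosa and 26.5 to 39.6 CPM elsewhere. Cstf2, the RNA-binding subunit of CstF, was at 34.1 and 19.9 CPM in buccal mucosa, 24.6 and 25.2 CPM in dorsal tongue, 40.4 and 28.3 CPM in hard palate, then 17.1 and 21.2 CPM in ventral tongue. For both genes the buccal samples lay within the range of the other sites. Cstf2 has a related autosomal gene, Cstf2t, and the sources used here do not say how any reads shared by the pair were counted. Cstf2t, which was looked at after its values were seen, was at 15.3 and 43.8 CPM in buccal mucosa and 2.31 to 38.7 CPM elsewhere.

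So 1 of the 7 genes had both buccal samples above all others, where 7.31% of 18609 entries tested did, and 1 had both below, where 4.39% did. In the fit over all entries, the log2 fold of buccal mucosa over the mean of the other sites was 3.59 ± 0.28 (SE, 2 samples against 6) for Cpsf7. It was -0.12 ± 0.21 for Cpsf6, -0.57 ± 0.32 for Nudt21, -0.72 ± 0.24 for Pcf11, -0.92 ± 0.31 for Clp1, 0.01 ± 0.19 for Cpsf1 and 0.04 ± 0.27 for Cstf2. Cpsf7 was the 1 gene of the 7 past an adjusted p of 0.05, where 0.72% of entries passed in either direction and 0.602% passed as higher. The genes were chosen with this contrast known, so nothing is read from that count. Without buccal mucosa replicate 1, which leaves replicate 2 as the lone buccal sample, the count was 4, with Nudt21, Pcf11 and Clp1 past the threshold as lower. In that fit 25.2% of 20227 entries passed in either direction and 11.9% passed as lower. The count was 0 when any one of the 6 samples of other sites was left out. In each of those 6 fits 0 entries passed in all, so the loss of the call was not particular to Cpsf7. Over 15 settings, those 6 fits among them, the log2 fold of Cpsf7 ran from 3.08 to 4.12.

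The share of Cpsf7 in the summed UMIs of Cpsf6 and Cpsf7 does not depend on the library total. It was 51.8% (95% Wilson interval 49.8% to 53.8%) and 45.5% (41.9% to 49.1%) in buccal mucosa replicates 1 and 2. Dorsal tongue had 7.84% and 5.59%, hard palate 8.50% and 10.7%, and ventral tongue 5.35% and 4.79%. The intervals of the other sites ran from 3.73% at the lowest to 12.001% at the highest. Intervals cover counting error only. The buccal samples lay apart from the rest on this scale, with Cpsf6 close to its level elsewhere. The share is made from the Cpsf7 counts that chose the gene, so its gap is a description and not separate support.

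**Figure D2:**
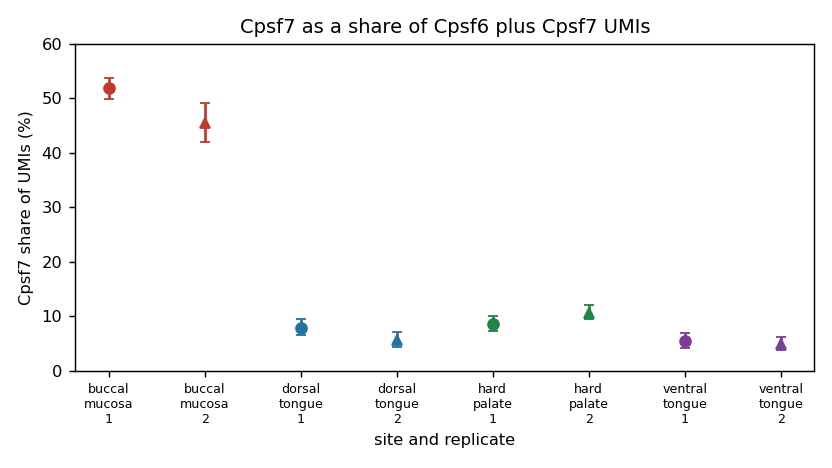
The vertical axis is the Cpsf7 share of Cpsf6 plus Cpsf7 UMIs in percent, for each sample along the horizontal axis, with bars for the 95% Wilson interval. Buccal mucosa lies at 51.8% and 45.5%, and the other 6 samples between 4.79% and 10.7%.

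The sections are parts of the libraries whose totals chose Cpsf7, so they are not replicates and describe the level along each sample. In buccal mucosa replicate 1, Cpsf7 ran from 56.5 to 94.4 CPM over 17 sections with a median of 68.1 CPM. In replicate 2 it ran from 11.8 to 60.8 CPM over 20 sections with a median of 40.5 CPM. The highest of the 117 sections of the other sites was at 14.9 CPM. All 17 sections of replicate 1 and 19 of 20 of replicate 2 lay above it. For each of the other 6 genes, no buccal section lay above the highest section of the other sites. The highest section of Cpsf6 in buccal mucosa was at 96.5 CPM, against 104.9 CPM elsewhere.

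**Figure D3:**
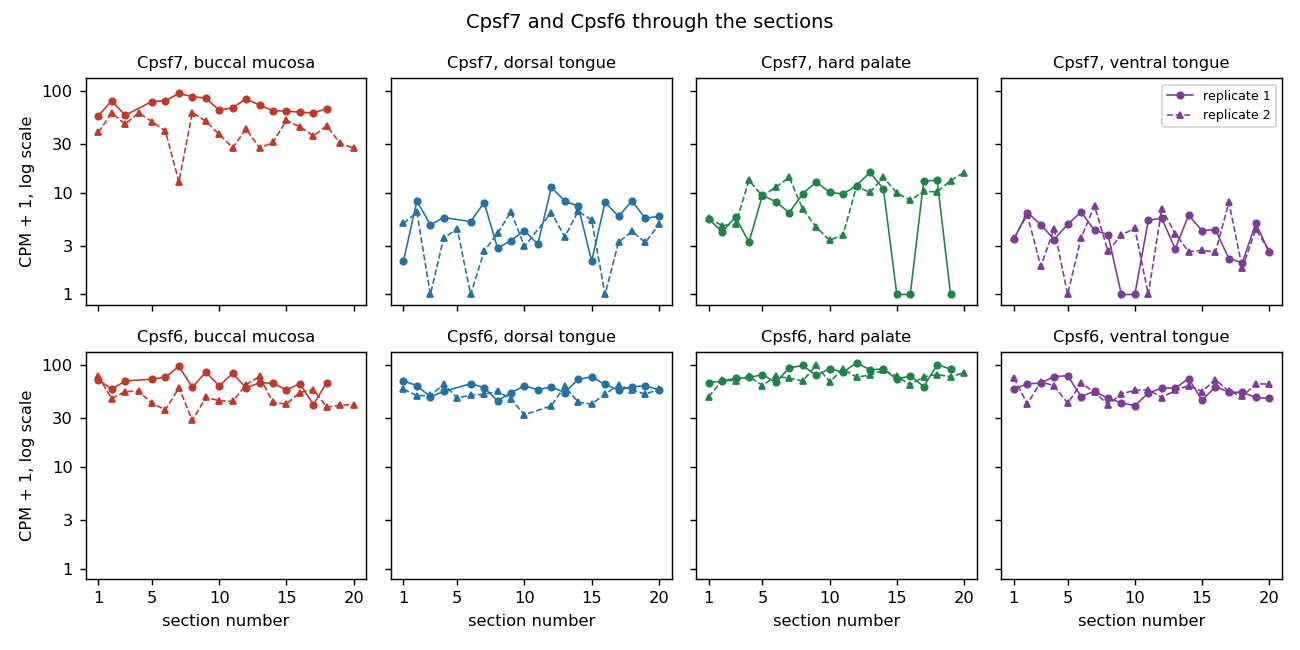
Each panel plots CPM + 1 on a log scale against the section number for Cpsf7 (upper row) or Cpsf6 (lower row) at 1 site, with a line for each replicate and sections under 100000 UMIs left out. Cpsf7 stays high along both buccal samples (medians 68.1 and 40.5 CPM) and low elsewhere, while Cpsf6 runs between 27.6 and 104.9 CPM over all panels.

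Markers of other tissues were set beside Cpsf7 within each buccal sample. Across the 17 sections of replicate 1, Spearman's rho of Cpsf7 with the keratinocyte score was 0.20, and across the 20 sections of replicate 2 it was 0.21. With the adipocyte score it was -0.28 and 0.49, with the salivary gland score -0.24 and 0.38, and with the skeletal muscle score -0.22 and -0.51. With the macrophage and leukocyte score it was 0.10 and 0.13, with the fibroblast score 0.05 and 0.12, with the endothelium score -0.07 and 0.11, and with the Schwann cell score -0.21 and -0.18. The sections of a sample share its library. Besides the salivary gland list, the 8 macrophage and leukocyte markers were the list whose sum was higher in both buccal samples, at 854 and 726 CPM, than in all others, at 327 to 583 CPM. The part of tissue content in the Cpsf7 level was not tested.

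Reads per UMI show how often each counted molecule was sequenced. For Cpsf7 they were 2.11 and 2.02 in buccal mucosa and 1.06 to 1.30 in the other samples. Single-gene entries within 1.5 times the Cpsf7 UMI count of the same sample had a median of 1.52 and 1.67 in buccal mucosa, so both buccal libraries had more reads per UMI at such counts. Cpsf7 lay above 98.2% of 2151 such entries in replicate 1 and above 83.8% of 2887 in replicate 2. In the other 6 samples Cpsf7 lay above 11.9% to 64.2% of them. Clp1 was at 1.97 in replicate 1 and 3.53 in replicate 2, above 97.7% and 99.97% of its like entries, and in the other 6 samples it lay above 86.9% to 97.8% of them. Cpsf1 lay above 85.5% to 98.1% of its like entries over all 8 samples, buccal mucosa included. Counted in reads, Clp1 was at 21.4 and 17.9 CPM in buccal mucosa and 18.7 to 34.5 CPM elsewhere, so the groups overlapped on that scale. Counted in reads, Cpsf7 was still apart, at 63.5 and 30.9 CPM in buccal mucosa and 1.49 to 5.01 CPM elsewhere. Why the reads per UMI of these genes differ was not tested.

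**Figure D4:**
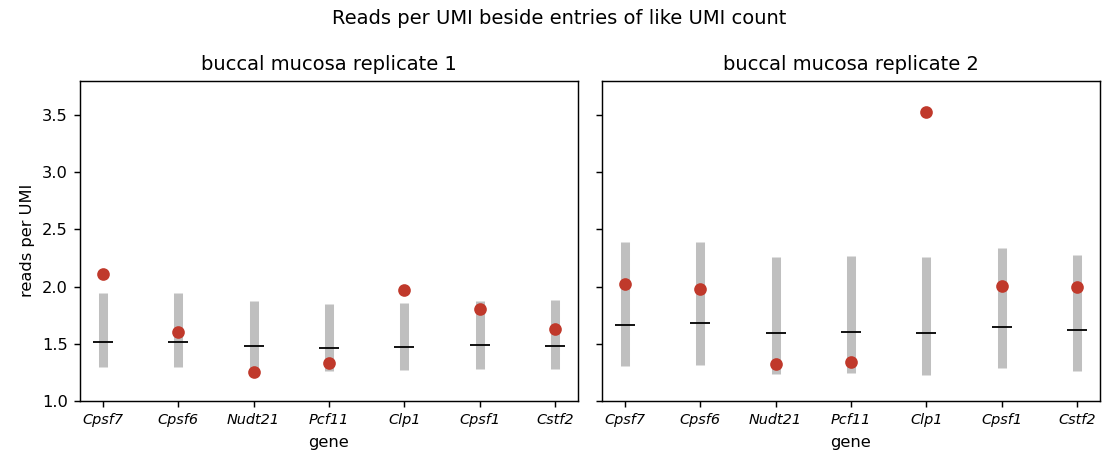
Red points are the reads per UMI of each gene in buccal mucosa replicates 1 (left) and 2 (right), and grey bars with a black tick give the 5th to 95th percentile and median of entries with a like UMI count. Cpsf7 at 2.11 lies above its bar in replicate 1 and within it at 2.02 in replicate 2, and Clp1 at 3.53 lies far above its bar in replicate 2.

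The genes next to Cpsf7 did not share its pattern. Cpsf7 spans chr19:10525266-10547653 on the plus strand of GRCm38. Sdhaf2, which is needed to assemble succinate dehydrogenase, overlaps its start on the opposite strand and was at 37.2 and 42.8 CPM in buccal mucosa, 24.7 to 26.7 CPM in dorsal tongue and hard palate, and 38.6 and 38.2 CPM in ventral tongue. Tmem216, a protein of the ciliary transition zone, overlaps its 3′ part on the opposite strand and was at 8.35 and 9.96 CPM in buccal mucosa and 6.64 to 13.8 CPM elsewhere. Tmem138, the next gene beyond, was at 6.93 and 3.70 CPM in buccal mucosa and 4.47 to 8.003 CPM elsewhere. AC125093.1, the third annotated gene on that side, was not analysed here. Lrrc10b and Ppp1r32 were at most at 1.86 CPM in any sample. The sources used here do not say whether the counting used the strand, so reads of Cpsf7 and of the genes that overlap it cannot be told apart with certainty. The same holds for Pcf11, Cpsf1 and Cstf2, which overlap other annotated genes, while Cpsf6, Nudt21 and Clp1 overlap none.

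The genes most like Cpsf7 over the 8 samples, by Pearson's r of log2(CPM + 1) among 7498 genes with a mean of at least 20 CPM, were Pgrmc1 (r = 0.97), H2-D1 (0.95), Vapa (0.95), 2210016F16Rik (0.95) and C1qtnf12 (0.95). Their buccal levels stood much less far from the rest: Pgrmc1 was at 93.4 and 66.7 CPM in buccal mucosa and 37.3 to 57.2 CPM elsewhere. Of the other cleavage factors, Cpsf1 had r = 0.41, Cstf2 0.33, Cpsf6 0.18, Pcf11 -0.29, Nudt21 -0.46 and Clp1 -0.64. The 8 points hold 2 buccal samples far from the other 6. Within samples, over all 160 sections after subtracting each sample's mean, the most alike were Scpep1 (r = 0.52), Pex14 (0.48), Pdap1 (0.48), Rp9 (0.47) and Anxa4 (0.46). Over the 154 deeper sections the first was Syap1 (0.43), so this order rests in part on a few shallow sections.

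The other 3 sites were compared without using the contrast that chose the genes. For Cpsf7 the site means were 8.46 ± 0.80 CPM in hard palate, 4.04 ± 1.48 in dorsal tongue and 2.99 ± 0.23 in ventral tongue (SD, n = 2). The hard palate samples lay above the others, and the dorsal and ventral tongue samples overlapped. None of the 7 genes passed the test of any difference between the 3 sites (edgeR's quasi-likelihood test, Benjamini-Hochberg adjusted p under 0.05), which 979 of 18609 entries did, or 5.26%, and none passed in DESeq2, where 12.9% of entries did. Cpsf7 had an unadjusted p of 0.0466, the 1 gene of the 7 under 0.05 where 19.6% of entries were, and an adjusted p of 0.246. Pcf11 had an adjusted p of 0.343, and the other 5 had 0.601 or more.

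By pairs of sites in the same edgeR fit, the log2 fold of hard palate over ventral tongue was 1.19 ± 0.39 (SE) for Cpsf7, with an adjusted p of 0.124. Leaving out buccal mucosa replicate 1 or 2, which changes the filter, the scaling and the shared spread, gave folds of 1.29 and 1.19 for this pair. Over all edgeR alternatives the fold of this pair ran from 1.18 to 1.38. The fold of hard palate over dorsal tongue was 0.67 ± 0.38 and that of dorsal over ventral tongue 0.52 ± 0.39. For Pcf11 the folds were 0.69 ± 0.29 for hard palate over ventral tongue and 0.66 ± 0.29 for dorsal over ventral tongue, with adjusted p of 0.210 and 0.918. Cpsf6 had 0.22 ± 0.26 for hard palate over ventral tongue, with an adjusted p of 0.672.

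Sections 1 to 10 were compared with sections 11 to 20 within each sample, a contrast the choice of genes did not use. The labels do not say which end of a block section 1 is, and the keratinocyte score was highest at section 1 in 4 samples, at section 4 in 2, at section 9 in hard palate replicate 2 and at section 20 in hard palate replicate 1. Pcf11, the cleavage factor II subunit that contacts RNA polymerase II, was higher in sections 1 to 10. It was at 23.9 against 16.6 CPM and 16.1 against 15.6 CPM in buccal mucosa, and at 43.8 against 31.3 CPM and 25.8 against 23.1 CPM in dorsal tongue. Hard palate had 38.2 against 42.0 CPM and 44.9 against 40.4 CPM, and ventral tongue 30.8 against 15.4 CPM and 24.1 against 15.3 CPM. The first 10 sections were higher in 7 of 8 samples, with hard palate replicate 1 the other way. The log2 fold was 0.40 ± 0.10 (SE, 8 samples, edgeR with the sample as a block), with an adjusted p of 0.00884. It kept its call without each sample in turn, with adjusted p from 0.00376 to 0.0287. The groups of sections overlapped between samples, since the level of Pcf11 also varied by sample.

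Pcf11 was the 1 gene of 7 that passed, where 27.6% of 17905 entries passed in either direction and 11.9% passed as higher, so the count is below the background. In DESeq2 it was also 1 of 7, where 27.9% passed, and 2 of 7 had an unadjusted edgeR p under 0.05, where 39.9% did. Of all entries that passed, 2123 were higher and 2815 lower in sections 1 to 10. With RLE size factors the split was 2653 higher and 2370 lower. Nudt21 had a log2 fold of 0.15 ± 0.06 with an adjusted p of 0.0951, Clp1 0.13 ± 0.08 with 0.239, and Cpsf7 -0.13 ± 0.10 with 0.800. The folds of Cpsf6, Cpsf1 and Cstf2 lay between -0.03 and 0.03, with SE of 0.06 to 0.09. In CPM, however, Cpsf6 was higher in sections 1 to 10 in 1 of 8 samples. A count of samples as uneven as that of Pcf11 was therefore not particular to Pcf11. The mean log2(CPM + 1) of the keratinocyte markers was higher in sections 1 to 10 in 6 of the 8 samples, with differences from -0.14 to 1.30, and its part in the Pcf11 difference was not tested.

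**Figure D5:**
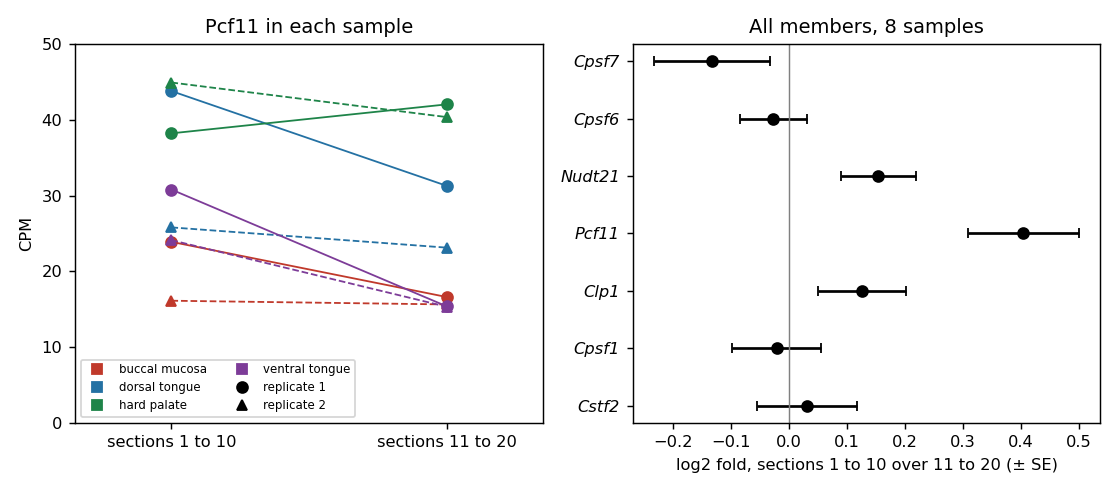
The left panel plots the Pcf11 level in CPM in sections 1 to 10 and 11 to 20, with a line for each sample. The right panel plots the log2 fold of sections 1 to 10 over 11 to 20 for each gene with its SE over 8 samples. Pcf11 falls along 7 of 8 lines and has the largest fold of the 7 genes, 0.40.

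Whether the difference between the section groups depends on the site was tested as an interaction. None of the 7 genes passed in edgeR's test, where 73 of 17905 entries did, or 0.408%, and none had an unadjusted p under 0.05, where 15.1% of entries did, or passed in DESeq2, where 2.34% did. For Cpsf7 the log2 fold of sections 1 to 10 over 11 to 20 was 0.12 ± 0.13 (SE) in buccal mucosa, -0.32 ± 0.20 in dorsal tongue, -0.35 ± 0.16 in hard palate and -0.10 ± 0.23 in ventral tongue. Its edgeR adjusted p was 0.511. For Pcf11 the folds were 0.24 ± 0.18, 0.42 ± 0.15, 0.22 ± 0.15 and 0.74 ± 0.16 in the same order, with an adjusted p of 0.482 in edgeR.

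The Cpsf7 share of Cpsf6 and Cpsf7 UMIs was also compared between the section groups. It was lower in sections 1 to 10 in 6 of 8 samples, by 0.36 percentage points on average (mean -0.36 ± 2.44, SD, n = 8), with p = 0.727 in a two-sided exact sign-flip permutation test. The outlying sample was buccal mucosa replicate 2, where the share was 48.3% in sections 1 to 10, a difference of 5.18 percentage points. Without it the mean was -1.15 percentage points, with an exact permutation p of 0.0469, so this result turns on 1 sample.

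The rest of the 3′ end machinery was examined through 7 lists with 74 genes, all of them tested. They cover other core factors (19 genes), termination and polymerase tail factors (12), Integrator (14), the PAF1 complex (6), histone mRNA 3′ end factors (5), U1 snRNP (6) and SR proteins with the importins of Cpsf6 (12). In the comparison of buccal mucosa with the other sites none of the 74 genes passed in edgeR, where 0.72% of all entries did. Of the 74, 7 had an unadjusted edgeR p under 0.05 and 2 passed in DESeq2, against 19.4% and 7.48% of all entries. The median log2 fold was -0.13 for the other core factors, -0.12 for termination factors, 0.02 for Integrator, -0.11 for PAF1, -0.63 for the histone factors, -0.45 for U1 snRNP and -0.06 for SR proteins. The median over all entries was 0.03. Single genes of the lists ran from -1.25 to 1.19, below the fold of Cpsf7.

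None of the 74 genes passed the edgeR or DESeq2 test between dorsal tongue, hard palate and ventral tongue. Of all entries 5.26% passed it in edgeR and 12.9% in DESeq2. In this comparison 1 of the 74 had an unadjusted edgeR p under 0.05, against 19.6% of all entries. None passed either tool's test of a section difference that depends on the site, against 0.408% of all entries in edgeR and 2.34% in DESeq2. In that test 4 of the 74 had an unadjusted edgeR p under 0.05, against 15.1% of all entries. Between the section groups, 4 of the 74 passed as higher in sections 1 to 10 and none as lower, against backgrounds of 11.9% and 15.7%. Rbbp6, a ubiquitin ligase of the core machinery, had a log2 fold of 0.39 with an edgeR adjusted p of 0.00149. Ppp1r10, a phosphatase-targeting subunit, had 0.31 with 0.00990. Lsm10, of the ring of U7 snRNP that processes histone mRNA, had 0.25 with 0.0241, and Srsf9, a splicing factor, had 0.24 with 0.0221. Without each sample in turn Rbbp6 and Ppp1r10 kept their call, while Lsm10 kept it in 4 and Srsf9 in 6 of 8 such fits.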

How the data were processed

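Section RNA became CEL-seq2 libraries, in which molecules are counted near their 3′ ends by molecular identifiers (UMIs), run on a NextSeq500 per the labels' protocols. The submitters' processing notes name the build GRCm38, STAR 2.7.9a and Trim Galore 0.6.10. No counting program is stated in those sources. The authors deposited a table of UMI counts, a table of read counts and a table of estimated counts, which the values show to be UMI counts with a correction for collisions among 4096 identifiers. UMI counts were used unless stated, and the estimated counts were rounded to whole numbers for the fits. Entries naming several genes (413) stayed in library sizes.

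UMI counts were summed per sample or per group of sections, filtered with filterByExpr, scaled by TMM and tested with the quasi-likelihood test of edgeR 4.0.16 in R 4.3.3 over all entries, with Benjamini-Hochberg adjusted p under 0.05. Site fits used all 8 samples, which share 1 estimate of the spread, and fits between section groups had the sample as a block. SE is the fold divided by the square root of F. Where edgeR's Poisson bound raises a p, as for Cpsf7 between the section groups, that p is larger than the SE implies. Alternatives used RLE size factors, DESeq2 1.42.0, no filter, reads, estimated transcripts, other section groups and left-out samples. Shares were tested by exact sign-flip permutation. Fits were also run on simulated counts with set folds, and no result given here rests on that run. All 7 members are named. Of other lists, up to 6 genes past the threshold are named, along with the 5 genes most like Cpsf7 and 3 annotated neighbours on each side. Members and lists were chosen with earlier results of these data known.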

Additional observations from a re-analysis of the deposited data

How the results depend on the processing

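The counts of members that differed among dorsal tongue, hard palate and ventral tongue, or whose section difference depended on site, were 0 under all 14 alternatives of each. Calls between sections 1 to 10 and 11 to 20 numbered 1 of 7 (Pcf11), and 2 with RLE size factors, with sections 1 to 5 against 16 to 20, and with epithelium-rich against epithelium-poor sections, where Nudt21 joined with edgeR adjusted p of 0.0450, 0.0478 and 0.0376. Leaving out 1 sample gave 1 to 3, with Nudt21 joining without hard palate replicate 1 and Nudt21 and Clp1 without replicate 2. Over all entries, 5023 of 17905 passed with RLE size factors, 4849 of 15803 with the end sections and 4798 of 18057 with the epithelium split. Without hard palate replicate 1 it was 5222 of 17614, and without replicate 2 it was 5154 of 17598. A count of 2 of 7 is near these shares, and nothing is read from the added calls. For Cpsf7 the adjusted p of this contrast was 0.351 without edgeR's Poisson bound, an alternative chosen after seeing the data, and the count of 1 stayed. The count of members called in buccal mucosa was 1, and 0 to 4 when 1 sample was left out. The left-out fits with 0 members had 0 entries passing in all. The share difference of -0.36 percentage points ran from -1.15 to -0.027 when 1 sample was left out.

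Deviations of same-numbered samples correlated from -0.27 to 0.08 over 5 pairs of sites and at 0.53 between dorsal and ventral tongue. The labels do not say that a number marks a shared animal, and not every pair correlated, so the fits had no such block. Whether the dorsal and ventral tongue samples share animals is not known, and 0 members were called between them with or without the block. With the replicate number as a block, 0 members were called in buccal mucosa (2 entries in all, against 134) and 0 between the section groups, where replicate number and site stood in place of the sample (361 entries against 4938, edgeR adjusted p of 0.117 for Pcf11, 0.208 for Rbbp6, 0.222 for Ppp1r10, 0.467 for Lsm10 and 0.494 for Srsf9, so that all 5 lost their call). For the 3 sites the block gave 520 entries against 979, with 0 members in both fits. Counts over all entries moved by more than 1.5 times elsewhere. For the 3 sites, 979 became 3111 without the filter, 2404 with DESeq2 and 0 to 2877 without 1 sample. For buccal mucosa, 134 became 2584 without the filter, 1392 with DESeq2 and 0 to 5093 without 1 sample. For the interaction, 73 became 1958 without the filter, 419 with DESeq2, 128 with RLE size factors, 31 with reads, 3 with sections 1 to 5 against 16 to 20, and 10 to 988 without 1 sample. Of the 74 genes of the other lists, 4 passed between the section groups in edgeR and 11 in DESeq2, against 27.9% of all entries in DESeq2. The causes were not tested. With 2 samples a site, a p that misses the threshold does not show that the sites are alike.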
